A study of Homo sapiens with 6 samples.

Results

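The aryl hydrocarbon receptor AHR, its repressor AHRR and 6 genes known as AHR targets were followed in the RNA of HCT116 stem cells (HCT116SCs). The 8 genes, of 58735 in the table, were taken by gene symbol. They were chosen from the measured values, because CYP1A1 was among the genes with the largest rise after PSCA siRNA. All 8 symbols were found. HCT116 is an established human colorectal cancer line, and HCT116SCs are cells derived from it that grow as spheres in serum-free medium with 20 ng/mL EGF, 20 ng/mL bFGF and B27. They were sorted with magnetic beads for the surface proteins CD44 and CD326. In the NC group (3 libraries, genotype given as WT), sphere cells were dissociated and transfected with a negative control siRNA. In the siPSCA group (3 libraries, genotype given as PSCA knockdown), they were transfected with siRNA against prostate stem cell antigen (PSCA). All 6 libraries were made from total RNA of cells harvested 48 h after transfection, so both groups carried siRNA and liposomal reagent. The labels list 3 PSCA siRNAs without saying which was used, and the titles of siPSCA 2 and siPSCA 3 name HCT117 and HCT118 where all other labels name HCT116. Nothing in the sources says that libraries of a group came from separate cultures, so p-values here measure the spread between these libraries, which may be technical. HCT116SCs derive from a single tumour line and stand for no other tumour.

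AHR is a ligand-activated transcription factor of the bHLH-PAS family that waits in the cytoplasm with HSP90. On binding a ligand, such as a polycyclic aromatic compound or a tryptophan product, it enters the nucleus, pairs with ARNT and binds DNA elements with the core GCGTG. CYP1A1, CYP1A2 and CYP1B1, monooxygenases of the cytochrome P450 family, are its best known targets in liver, gut and other barrier tissues. AHRR, which competes for ARNT, and TIPARP, which ADP-ribosylates the receptor, are targets that feed back on it.

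The promoters of these genes are shown first, because the core element is the feature by which the targets are usually grouped. RefSeq windows of 300 bases on GRCh38.p14, from 250 bases before a transcription start to 50 after it, matched 6 of the 8 genes in 9 windows, some genes having several starts. CYP1B1 and ALDH3A1 had no entry. Both strands were searched for the core GCGTG, which reads as CACGC on the other strand, for the longer form TNGCGTG, which contains the core, and for TATAAA. The 4 windows printed are those of the neighbouring pair CYP1A1 and CYP1A2, the AHRR window with the longer form, and the TIPARP window with 2 cores. Capitals mark the core on either strand, and each run is the strand of the gene, 5′ to 3′.
CYP1A1, chr15:74725479-74725778, minus strand: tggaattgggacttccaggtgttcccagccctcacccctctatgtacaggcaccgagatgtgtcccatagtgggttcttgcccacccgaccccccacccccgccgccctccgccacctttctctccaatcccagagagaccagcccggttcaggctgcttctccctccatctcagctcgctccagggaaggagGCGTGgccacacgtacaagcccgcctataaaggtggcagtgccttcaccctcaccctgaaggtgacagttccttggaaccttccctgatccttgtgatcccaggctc
CYP1A2, chr15:74748595-74748894, plus strand: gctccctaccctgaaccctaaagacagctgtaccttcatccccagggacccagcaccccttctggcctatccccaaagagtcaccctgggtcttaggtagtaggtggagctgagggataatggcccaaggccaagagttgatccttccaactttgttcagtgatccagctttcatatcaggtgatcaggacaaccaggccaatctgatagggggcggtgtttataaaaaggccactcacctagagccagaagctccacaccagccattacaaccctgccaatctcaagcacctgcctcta
AHRR, chr5:321464-321763, plus strand: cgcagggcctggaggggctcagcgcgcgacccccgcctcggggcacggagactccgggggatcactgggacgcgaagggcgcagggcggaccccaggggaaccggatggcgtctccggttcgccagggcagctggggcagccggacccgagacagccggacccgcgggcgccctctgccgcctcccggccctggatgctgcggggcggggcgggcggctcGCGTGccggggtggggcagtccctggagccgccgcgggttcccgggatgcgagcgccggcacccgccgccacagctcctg
TIPARP, chr3:156674340-156674639, plus strand: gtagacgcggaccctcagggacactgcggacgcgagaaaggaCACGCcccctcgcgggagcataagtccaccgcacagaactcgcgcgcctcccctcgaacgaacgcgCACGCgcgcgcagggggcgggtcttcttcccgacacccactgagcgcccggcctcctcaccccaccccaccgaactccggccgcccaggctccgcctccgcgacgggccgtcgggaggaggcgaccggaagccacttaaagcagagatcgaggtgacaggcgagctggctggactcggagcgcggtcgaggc

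The CYP1A1 window held 1 core, whose first base lay at -57 from the start, with TATAAA at -32. The CYP1A2 window held no core but had TATAAA at -29. In AHRR the core of the printed window lay at -30 within the longer form at -32, and a second AHRR start had cores at -247 and -42. TIPARP carried the core on the opposite strand at -208 and -142, AHR had it at 38 bases after the start, and CYP2S1 had none in its window. Thus 5 of the 9 windows, from 4 of the 6 genes matched, held a core, against 36.5% of all 35116 windows. The longer form was in 1 of the 9 windows and in 5.51% of all windows, and TATAAA was in 2 and in 11.5%. These matches describe letters only and say nothing about binding in these cells. Bases beyond the windows were not searched, so a window without a core does not mean a gene without one.

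The libraries held 16099716 to 17302219 reads on genes, so that 1 read on a 1 kb transcript was worth an FPKM of 0.0549 to 0.0595. PSCA itself had 4, 12 and 15 reads in NC 1, NC 2 and NC 3 and 9, 9 and 7 in siPSCA 1, siPSCA 2 and siPSCA 3. The siPSCA to NC ratio of summed reads was 0.784 with an exact 95% interval of 0.444 to 1.37, so a knockdown was not detectable in the RNA at this depth. Of the 9 markers of colorectal epithelium, 7 had a mean FPKM of at least 1, with EPCAM between 93.3 and 122.9 in all libraries, whereas VIL1 was near 0 and CDX1 was listed at 0. EPCAM, which encodes CD326, and CD44 are the markers by which the cells were sorted, so their presence is no separate evidence of cell type. Summed FPKM of the 9 markers was 807 to 868 in NC and 861 to 890 in siPSCA, but single markers moved in both directions. Of the 7 tested, KRT8 (log2 fold change 0.22), KRT19 (0.25) and CDX2 (0.70) passed an adjusted p of 0.05 in the limma fit as higher. CDH1 (-0.60) and CD44 (-0.44) passed as lower, where 50.7% of all genes tested passed. With the trend of fold changes on GC content removed, 1 of the 7 was higher and 3 were lower. Among 6 hepatocyte markers, ALB, TTR, APOA1 and CYP3A4 were at or near 0, HNF4A rose (log2 fold change 0.29, adjusted p = 0.0494) and SERPINA1 fell (-0.59, adjusted p = 0.0202). With the trend of fold changes on GC content removed, HNF4A (0.21) lost its call and SERPINA1 (-0.75) kept it. The hepatocyte list summed to 3.64 to 5.13 in NC and 2.79 to 3.73 in siPSCA. Fibroblast markers summed to 3.49 to 5.74 in NC and 6.17 to 6.74 in siPSCA. COL1A1, the 1 tested gene of these 6, did not pass (0.35, adjusted p = 0.111) and was at -0.03 with the trend of fold changes on GC content removed. The part of these markers in the results was not tested. Summed FPKM of leukocyte and of endothelial markers stayed at or under 0.443 in every library. Fewer cells with a transcript and less of it per cell cannot be told apart in bulk RNA.

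The receptor gene AHR lies on chromosome 7 from 16916359 to 17346152 on the plus strand of GRCh38 (ENSG00000106546). Its FPKM was 3.82, 4.61 and 4.19 in NC 1, NC 2 and NC 3 and 4.25, 3.71 and 4.34 in siPSCA 1, siPSCA 2 and siPSCA 3. The groups overlapped, with the lowest level in siPSCA 2 and the highest in NC 2. The means were 4.21 ± 0.395 and 4.10 ± 0.340 FPKM for NC and siPSCA (SD, 3 libraries each). The log2 fold change, here always siPSCA minus NC of log2(FPKM + 1), was -0.03 with a standard error of 0.08 and a 95% interval of -0.23 to 0.18. This scale understates the change of genes with low FPKM. In the GENCODE release 29 annotation, 2373 of the 8081 exonic bases of AHR (29.4%) are shared on the same strand with AC019117.2, which is listed at 0 in all 6 libraries, so the level of AHR is uncertain by the way such reads were counted.

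AHRR, the repressor that resembles AHR and occupies ARNT without activating transcription, lies on chromosome 5 from 304176 to 438291 on the plus strand (ENSG00000063438). FPKM of AHRR was 6.05, 6.20 and 5.15 in NC 1 to NC 3 and 11.9, 12.1 and 12.0 in siPSCA 1 to siPSCA 3. Every siPSCA library lay above every NC library, and the siPSCA libraries lay close together. The mean was 2.07 times higher in siPSCA, 12.0 ± 0.085 against 5.80 ± 0.57 FPKM (SD, 3 libraries each), and the log2 fold change was 0.94 ± 0.07 (SE). AHRR shares 244 of its 7678 exonic bases (3.18%) with PDCD6 on the same strand. PDCD6, a calcium-binding protein gene that overlaps AHRR, rose as well, by a log2 fold of 0.46 (adjusted p = 0.00397), and every siPSCA library lay above every NC library.

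CYP1A1, the P450 that oxidises polycyclic aromatic compounds, lies on chromosome 15 from 74719542 to 74725610 on the minus strand (ENSG00000140465). Its recovered reads numbered 104, 107 and 104 in NC 1 to NC 3 and 1319, 1269 and 1277 in siPSCA 1 to siPSCA 3. In FPKM this was 1.80, 1.79 and 1.76 against 22.7, 20.8 and 20.4. No library lay between 1.80 and 20.4, and the NC libraries differed from each other by less than 0.05 FPKM. The mean rose 11.9 times, from 1.78 ± 0.0228 to 21.3 ± 1.23 FPKM (SD, 3 libraries each), and the log2 fold change was 3.00 ± 0.06 (SE). With a pseudocount of 0.1 in place of 1 it was 3.51.

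CYP1A2, the paralogue used in liver for caffeine and arylamines, faces away from CYP1A1 on the same chromosome, from 74748844 to 74756202 on the plus strand (ENSG00000140505), 23234 bases from it. It had 0, 2 and 0 reads in NC 1 to NC 3 and 10, 12 and 7 in siPSCA 1 to siPSCA 3, and the groups did not overlap. The ratio of summed reads, scaled to depth, was 14.1 with an exact 95% interval of 3.57 to 122, which covers counting error only. Both NC reads came from NC 2. With a mean FPKM of 0.0140 in NC and 0.202 in siPSCA the gene was under the minimum of 1 and entered no fit. CYP1A2 reads per 1000 CYP1A1 reads were 7.58, 9.46 and 5.48 in siPSCA and 0, 18.7 and 0 in NC. The transcripts of CYP1A2 share 0 of their 2679 words of 50 bases with those of CYP1A1 or CYP1B1, so an exact 50-base match could not be assigned to both.

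CYP1B1, the member of the family that hydroxylates estradiol and is common outside the liver, lies on chromosome 2 from 38066973 to 38109902 on the minus strand (ENSG00000138061). Its FPKM was 1.27, 1.38 and 1.42 in NC 1 to NC 3 and 3.93, 3.47 and 3.93 in siPSCA 1 to siPSCA 3. Every siPSCA library (371 to 431 reads) was above every NC library (128 to 147 reads). The means were 1.36 ± 0.08 and 3.78 ± 0.266 FPKM (SD, 3 libraries each), and the log2 fold change was 1.02 ± 0.08 (SE). The antisense gene CYP1B1-AS1 overlaps 678 of its 6014 exonic bases (11.3%) and the sources do not state whether counting used strand, but mean FPKM of the antisense gene was 0.0682 in NC and 0.139 in siPSCA.

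CYP2S1 is a P450 of epithelia and lies on chromosome 19 from 41193049 to 41207539 on the plus strand (ENSG00000167600). FPKM was 4.74, 4.36 and 3.51 in NC 1 to NC 3 and 7.86, 7.69 and 6.49 in siPSCA 1 to siPSCA 3. The groups did not overlap. The means were 4.20 ± 0.628 and 7.35 ± 0.744 FPKM (SD, 3 libraries each), and the log2 fold change was 0.69 ± 0.11 (SE).

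ALDH3A1, an aldehyde dehydrogenase of cornea and stomach, lies on chromosome 17 from 19737984 to 19748943 on the minus strand (ENSG00000108602). It had 16, 26 and 8 reads in NC 1 to NC 3 and 52, 52 and 49 in siPSCA 1 to siPSCA 3. Every siPSCA library held more reads than any NC library, and the ratio of summed reads was 2.98 with an exact 95% interval of 2.15 to 4.18. Its mean FPKM, 0.248 in NC and 0.739 in siPSCA, was also under the minimum.

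TIPARP, which ADP-ribosylates AHR, lies on chromosome 3 from 156673235 to 156706770 on the plus strand (ENSG00000163659). It was the most abundant of the 8 genes in FPKM, with 28.5, 28.9 and 30.9 in NC 1 to NC 3 and 29.3, 30.9 and 31.3 in siPSCA 1 to siPSCA 3. The groups overlapped. The means were 29.4 ± 1.30 and 30.5 ± 1.06 FPKM (SD, 3 libraries each), and the log2 fold change was 0.05 with a 95% interval of -0.08 to 0.18.

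**Figure D1:**
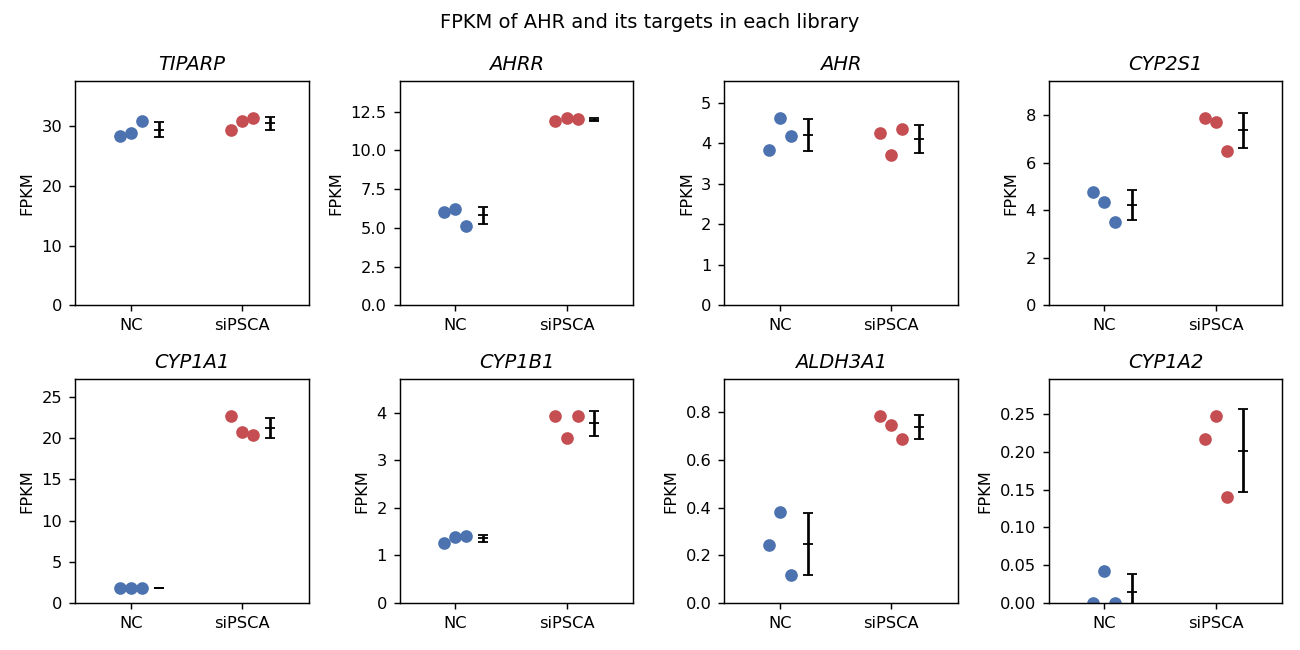
FPKM of each of the 8 genes (vertical axes from 0, a separate scale for each gene) in the NC (blue) and siPSCA (red) libraries, which are the points from left to right 1 to 3; bars give the mean and SD of 3 libraries, cut at 0 for CYP1A2. The groups overlap for AHR and TIPARP and do not overlap for the other 6 genes, with CYP1A1 at 1.76 to 1.80 in NC and 20.4 to 22.7 in siPSCA. Of all genes tested, 33.7% had every siPSCA library above every NC library, and CYP1A2 and ALDH3A1 were not among those tested.

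Per transcript length, the order of mean FPKM in NC was TIPARP, AHRR, AHR, CYP2S1, CYP1A1, CYP1B1, ALDH3A1 and CYP1A2. AHR and CYP2S1 had overlapping ranges (3.82 to 4.61 and 3.51 to 4.74), and no other neighbours in this order overlapped. In siPSCA the order was TIPARP, CYP1A1, AHRR, CYP2S1, AHR, CYP1B1, ALDH3A1 and CYP1A2, with AHR and CYP1B1 overlapping. CYP1A1 thus went from 5th to 2nd among the 8 genes. Among all protein-coding cytochrome P450 genes, CYP1A1 ranked 8th, 10th and 10th by FPKM in NC 1 to NC 3 and first in each siPSCA library. It made up 3.91%, 3.84% and 4.29% of summed P450 FPKM in NC and 30.9%, 28.6% and 29.1% in siPSCA. Without CYP1A1 the P450 sum was 39.2 to 44.8 in NC and 49.7 to 51.8 in siPSCA.

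Of the 6 genes that reached the minimum mean FPKM of 1, 4 (AHRR, CYP1A1, CYP1B1 and CYP2S1) had an adjusted p under 0.05 in the limma fit across 13796 genes, all higher in siPSCA. That threshold was passed by 50.7% of all genes tested, 26.6% as higher and 24.2% as lower. The same 4 genes had every siPSCA library above every NC library, as had 33.7% of all genes tested, and had an unadjusted p under 0.05 with a log2 fold change over 0.5, as had 14.7%. Since this contrast chose the genes, nothing is read from these counts. The median log2 fold change was 0.81 over the 6 genes and 0.01 over all genes tested.

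Fold changes across the transcriptome moved with the GC content of the transcripts, with a Spearman correlation of 0.66 across 13792 genes, which are not independent replicates. GC content was 53.3% for CYP1A1, 57.4% for AHRR, 61.0% for CYP2S1, 44.1% for CYP1B1, 42.8% for TIPARP and 38.2% for AHR, against a median of 48.1%. With the trend of fold change on GC content and length removed from each library, the log2 fold change was 2.82 for CYP1A1, 1.19 for CYP1B1 and 0.69 for AHRR. CYP2S1 was moved most, to 0.21, and its call was lost. AHR was moved to 0.35 and TIPARP to 0.26, and both then passed the threshold as higher. Of all 13792 genes, 3139 then passed as higher and 2255 as lower, with a median log2 fold change of 0.05. The calls of CYP2S1, AHR and TIPARP therefore depended on this step, while those of CYP1A1, CYP1B1 and AHRR did not. The part of GC content in these differences was not tested further.

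**Figure D2:**
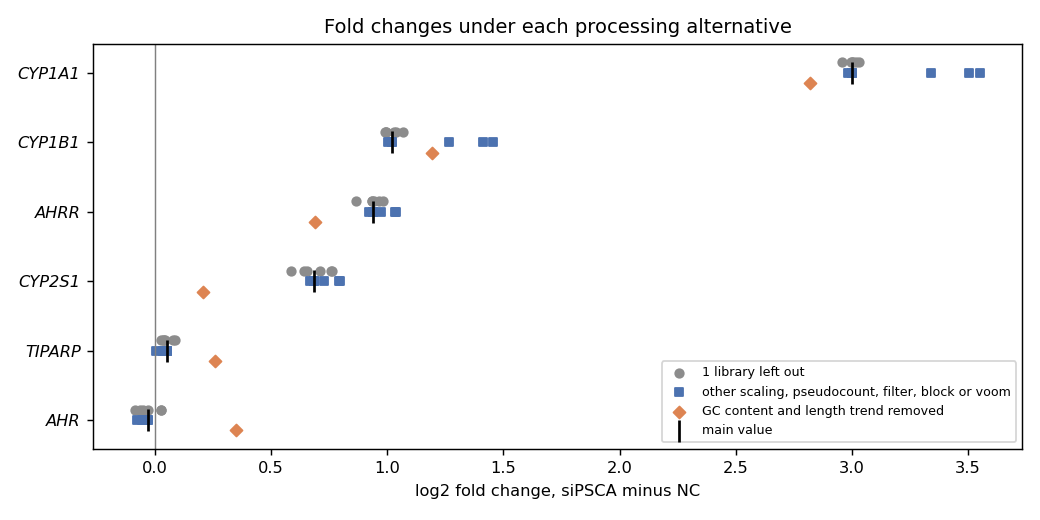
Log2 fold change (horizontal axis, siPSCA minus NC) of the 6 tested members as reported (black bars), with 1 library left out (grey), under other scalings, pseudocounts, filters, the block or voom (blue), and with the GC content and length trend removed (orange). CYP1A1 lies between 2.82 and 3.55 throughout, and AHR and TIPARP lie near 0 except in the orange points at 0.35 and 0.26.

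The genes that hold AHR in the cytoplasm or pair with it showed no common direction. Of 7 such genes, all tested, 2 rose and 2 fell, and their median log2 fold change was -0.02. ARNT, the DNA-binding partner of AHR, fell from 11.7 ± 0.753 to 9.36 ± 0.187 FPKM (SD, 3 libraries each; log2 fold change -0.29, adjusted p = 0.00892), while its relative ARNT2 rose from 1.15 to 1.77 (0.36, adjusted p = 0.0142). The ARNT2 call was lost without siPSCA 1 or siPSCA 3. SRC, the kinase found in the cytoplasmic complex, rose from 6.79 ± 1.49 to 11.8 ± 0.441 FPKM (0.74, adjusted p = 0.0079). The chaperone gene HSP90AA1 passed as lower (-0.32, adjusted p = 0.0349), and this call was lost with no FPKM minimum, without NC 2, without any siPSCA library and with the GC trend removed. HSP90AB1, the constitutive HSP90 gene, did not pass (-0.04, adjusted p = 0.695).

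Among 17 tested coregulators of AHR out of 18 listed, 5 rose and 6 fell, with a median of -0.07. Removing the GC trend left 1 higher and 3 lower, with a median of 0.01. Among the rises were those of STUB1, a ubiquitin ligase that acts on AHR (0.65, adjusted p = 0.0134), and the remodelling ATPase SMARCA4 (0.35, adjusted p = 0.00231). The largest falls were those of the corepressor NCOR1 (-0.51, adjusted p = 0.00257), the ubiquitin ligase scaffold CUL4B (-0.47, adjusted p = 0.0048) and RB1 (-0.33, adjusted p = 0.0105). Of these 5, only NCOR1 kept its call with the GC trend removed.

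Of 20 other genes listed as AHR-responsive, 8 were tested, of which 2 rose and 3 fell, with a median of 0.02 that became -0.0067 with the GC trend removed. NQO1, a quinone reductase that answers to both AHR and NRF2, had FPKM of 152.1, 152.4 and 155.9 in NC and 287.9, 282.0 and 282.9 in siPSCA. The groups lay far apart (log2 fold change 0.89, adjusted p = 0.000144), and the value was 0.93 with the GC trend removed. ALDH1A3, a retinaldehyde dehydrogenase, rose from 6.16 to 11.1 FPKM (0.76, adjusted p = 0.00108). The EGF receptor ligands AREG (-0.46, adjusted p = 0.00145) and EREG (-0.38, adjusted p = 0.00269) and the antioxidant factor gene NFE2L2 (-0.45, adjusted p = 0.00342) fell, and the EREG call was lost with the GC trend removed. UGT1A1, UGT1A6 and VAV3 were listed at 0 in every library.

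Genes that make or break down tryptophan-derived AHR ligands were mostly low, with 6 of 16 tested. MAOB rose (0.29, adjusted p = 0.0124), and MAOA (-0.39, adjusted p = 0.00736), KYAT3 (-0.36, adjusted p = 0.0131) and AFMID (-0.27, adjusted p = 0.0112) fell, for a list median of -0.19. KYAT3 lost its call without siPSCA 1 or siPSCA 2. IDO1 and TDO2, the enzymes that open the tryptophan ring, were at or near 0. Of 13 genes of the other xenobiotic receptors CAR and PXR, 2 were tested and both rose, where 26.6% of all genes tested rose. They were the efflux pump ABCC2 (0.25, adjusted p = 0.0073) and the dimer partner RXRA (0.53, adjusted p = 0.021). The list median of 0.39 rests on these 2 genes only, and RXRA lost its call with no FPKM minimum, without siPSCA 1, without siPSCA 2 and with the GC trend removed. CYP3A4 and the PXR gene NR1I2 were near 0.

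The 6 genes that supply electrons to P450 enzymes were all tested, and 5 rose, with a median of 0.38, where 26.6% of all genes tested rose. Removing the GC trend left 4 of them higher, where 3139 of all 13792 genes tested were. CYB5R3, a cytochrome b5 reductase, rose from 16.5 ± 1.92 to 27.6 ± 1.03 FPKM (0.72, adjusted p = 0.00193). POR, the reductase that serves the CYP1 enzymes, had FPKM of 12.6 ± 2.23 in NC and 16.6 ± 0.430 in siPSCA (0.38, adjusted p = 0.0405), but it was lost with no FPKM minimum, without NC 2 or without any siPSCA library and turned to -0.05 with the GC trend removed. FDXR, which serves mitochondrial P450 enzymes, had the largest value of the list (0.81, adjusted p = 0.0276), and lost its call with no FPKM minimum, without any siPSCA library and with the GC trend removed.

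Of 15 other bHLH-PAS genes, 10 were tested, of which 1 rose and 4 fell, with a median of -0.19. After removal of the GC trend 3 were higher and 1 was lower, with a median of 0.02. HIF1A, which also pairs with ARNT, had FPKM of 65.1 in NC and 67.9 in siPSCA (0.06, adjusted p = 0.447), but passed as higher (0.40) with the GC trend removed. CLOCK had the largest fall (-0.56, adjusted p = 0.00363), followed by NPAS2 (-0.26, adjusted p = 0.0428) and NCOA2 (-0.24, adjusted p = 0.0233), and SIM2 rose (0.27, adjusted p = 0.0233). With the GC trend removed none of these 4 passed, and leaving out siPSCA 1 ended the calls of NPAS2, NCOA2 and SIM2.

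Of 51 other protein-coding P450 genes, 12 were tested, of which 3 rose and 3 fell, with a median of 0.07 that became -0.08 with the GC trend removed. CYP51A1, of sterol synthesis, rose from 1.26 ± 0.536 to 3.23 ± 0.708 FPKM (0.92, adjusted p = 0.0149), and lost its call without siPSCA 1 or siPSCA 2. CYP39A1, an oxysterol hydroxylase (0.44, adjusted p = 0.007), and CYP27B1, which activates vitamin D (0.47, adjusted p = 0.0494), also rose, but the CYP27B1 call was lost under most of the other processing settings and without NC 2 or any siPSCA library. CYP24A1, which degrades vitamin D, fell from 1.63 ± 0.355 to 0.598 ± 0.105 FPKM (-0.71, adjusted p = 0.00664), as did CYP2U1 (-0.34, adjusted p = 0.0211) and CYP2R1 (-0.30, adjusted p = 0.00794). CYP24A1 reached the minimum mean FPKM of 1 only through the NC libraries. The CYP2U1 and CYP2R1 calls were lost with the GC trend removed, and that of CYP2U1 also without NC 2, siPSCA 1 or siPSCA 3.

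**Figure D3:**
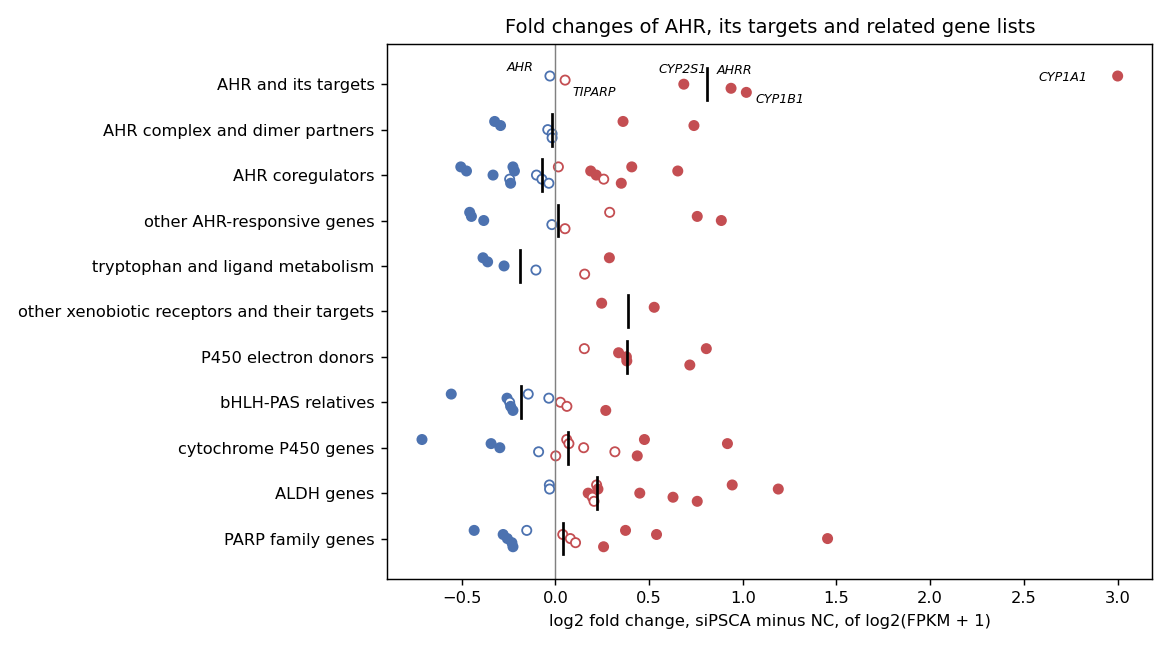
Log2 fold change (siPSCA minus NC, horizontal axis) of each tested gene, by list; filled points passed an adjusted p of 0.05, open points did not, red is above 0 and blue below, and black bars are list medians. The members, chosen on this contrast, have a median of 0.81 with CYP1A1 at 3.00, whereas the complex and dimer partners have -0.02.

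Of the nearest protein-coding neighbours of the 8 genes that were tested, other than members and overlapping genes, 4 fell, 3 rose and 3 did not pass, where 50.7% of all genes tested passed. On chromosome 15, EDC3 lies 23250 bases from CYP1A1 and rose (0.59, adjusted p = 0.00106), and CSK lies 25855 bases from CYP1A2 and rose (0.68, adjusted p = 0.00248), though to 0.11 and without a call with the GC trend removed. Beside AHRR, EXOC3 rose by 0.30 (adjusted p = 0.0091) and SDHA had 0.01 (adjusted p = 0.949). SNX13 beside AHR (-0.46, adjusted p = 0.00391), CDC42EP3 (-0.25, adjusted p = 0.0204) and ATL2 (-0.29, adjusted p = 0.0053) beside CYP1B1, and SSR3 beside TIPARP (-0.35, adjusted p = 0.00263) fell. AXL beside CYP2S1 (0.07, adjusted p = 0.378) and ULK2 beside ALDH3A1 (-0.24, adjusted p = 0.0962) did not pass. With the GC trend removed EDC3 and PDCD6 kept their calls, whereas EXOC3, SNX13, CDC42EP3, ATL2 and SSR3 did not.

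The 5 protein-coding genes whose profile over the 6 libraries lay nearest to CYP1A1, by Euclidean distance of log2(FPKM + 1) minus the NC mean, were TMEM238 at 1.62, FTH1 at 1.70, C4orf48 at 1.97, CTSD at 2.03 and IFI27 at 2.15. Their log2 fold changes were 2.43, 3.28, 2.06, 1.91 and 1.77. With the GC trend removed these were 1.45, 3.24, 1.16, 1.30 and 1.69, and with 1 library left out FTH1 ranged from 2.61 to 3.69. FTH1 encodes the ferritin heavy chain and has many near-identical pseudogene copies, so its level is uncertain, CTSD a lysosomal protease and IFI27 an interferon-induced protein. The likeness reflects the size of the change between the groups and covers 6 libraries only. In TMEM238, FTH1, C4orf48 and CTSD, NC 3 lay well below NC 1 and NC 2. FTH1 had 105 and 84.3 FPKM in NC 1 and NC 2 and 22.8 in NC 3, whereas CYP1A1 was 1.76 to 1.80 in NC. The reason for the low NC 3 values was not tested.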

How the data were processed

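RNA of 6 libraries was measured, 3 NC and 3 siPSCA, grouped by the treatment labels. The authors deposited 1 table of FPKM values (fragments per length of transcript and depth of library) for 58735 genes with length, position and biotype. The build is GRCh38 per the labels, all gene starts and ends matched GENCODE release 29, and the aligner, counter, strand setting and DEG method are not given in the sources used here. FPKM multiplied by length gave whole reads (tolerance 0.05) for 100% of values, so reads were recovered. Intervals cover counting error only, at a level of 95%, and reads without molecular identifiers are not independent molecules.

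Log2(FPKM + 1) of the 13796 genes that reached a mean FPKM of 1 was fitted by group in limma 3.58.1 (lmFit, eBayes with trend, 2-sided) in R 4.3.3, with Benjamini-Hochberg adjustment over all tested genes. An exact permutation test of 3 against 3 cannot go below p = 0.1. Tables and figures were made in Python 3.11.15 with pandas 2.3.3, numpy 2.4.6 and matplotlib 3.10.9, and the fit was tested on simulated data. The members and gene lists were chosen with earlier results of these data known, so members have no p. The lists were 7 written by hand from textbook roles and 3 by name pattern. Named were the members, PSCA, ARNT, ARNT2, HSP90AB1, NQO1, POR and HIF1A, the up to 3 largest called rises and falls of each list with groups apart, overlapping or nearest genes, the 5 nearest profiles, and the markers, with some items of this rule not reported here. UGT1A1, UGT1A6, VAV3, IDO1, TDO2 and NR1I2 were named after their values were seen. Alternatives were a pseudocount of 0.1, no FPKM minimum or one of 5, TPM, median-ratio scaling, limma-voom on the recovered reads, a fold change threshold of 0.5 (log2) with unadjusted p, removal of a trend on GC content and length (spline with 5 degrees of freedom), a replicate block, and each library left out.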

Additional observations from a re-analysis of the deposited data

How the results depend on the processing

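The number of genes past the adjusted threshold was 7001, and 4820 to 7385 under the other scalings, pseudocount, minima, limma-voom and the GC trend removed (5394, of which 3623 were also called in the reported fit). Where the call needed a raw p under 0.05 and a log2 change past 0.5, it was 3434. With 1 library left out it ranged from 4627 (without siPSCA 1) to 7425 (without NC 3). Of the list genes, 55 were called, 16 with the p and fold change thresholds, and 30 (without siPSCA 1) to 60 (without NC 3) with 1 library left out; without siPSCA 2 it was 36. The same 4 members were called in each of these except with no minimum, a minimum of 5 and the GC trend removed. With no minimum 6 of 8 were called, adding CYP1A2 and ALDH3A1, against 5601 of all 34391 genes tested. At a minimum of 5 it was 3 of 4, against 4820 of 7630, with AHR and CYP1B1 not tested. CYP1A1 and CYP2S1, with NC means of 1.78 and 4.20 FPKM, passed that minimum only through siPSCA, so this count is no support. With the GC trend removed it was 5 of 6, against 5394 of 13792. Nothing is read from these counts, since this contrast chose the members. Left-out libraries kept CYP1A1 between 2.96 and 3.03, CYP1B1 between 0.99 and 1.07, AHRR between 0.87 and 0.98 and CYP2S1 between 0.59 and 0.76. Under limma-voom these were 3.55, 1.45, 1.03 and 0.79. The ratio of ALDH3A1 reads was 2.36 to 4.10, and that of CYP1A2 reads 9.38 to 16.3 without each library other than NC 2, without which NC held none.

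Among named genes other than the markers, called values turned sign with the GC trend removed for POR (-0.050), RB1 (0.031), NCOA2 (0.014), PARP8 (0.13), SNX13 (0.0092), EXOC3 (-0.029) and ATL2 (0.027). The called marker KRT19 also turned, from 0.25 to -0.24. List genes that are not named were not followed here, and some of them turned as well. For the named genes other than the markers, no other alternative turned the sign of a value that was called. Of values near 0 that were not called, AHR, HSP90AB1, SDHA and AXL changed sign in at least 1 setting. The cause was not tested.

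A replicate block gave 6725 genes, 51 list genes and the same 4 members, and of the named genes other than the markers it ended the call of CYP27B1. Deviations of equally numbered libraries correlated at 0.0955, 0.0132 and 0.134, and not every library correlated best with its own number, so the libraries share only a number and the block is no pairing by design. Depth limits CYP1A2, ALDH3A1 and PSCA, which had at most 26 reads in any NC library.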

Other observations

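The families to which ALDH3A1 and TIPARP belong were also measured. Of 18 other aldehyde dehydrogenase genes, 12 were tested and 7 rose, while none fell, with a median log2 fold change of 0.22 against 0.01 over all genes, of which 26.6% rose and 24.2% fell. ALDH16A1 rose from 3.07 ± 0.806 to 8.16 ± 0.648 FPKM (SD, 3 libraries each; log2 fold change 1.19, adjusted p = 0.00222), and ALDH4A1, of proline breakdown, from 1.04 ± 0.286 to 2.89 ± 0.131 (0.94, adjusted p = 0.0022). With the GC trend removed these were 0.67 and 0.49, and 8 genes of the list were called as higher, as were 3139 of all 13792 genes tested.

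Of 15 other PARP family genes, 13 were tested, of which 4 rose and 5 fell, with a median of 0.04. After removal of the GC trend 4 were higher and 1 was lower. PARP10 rose from 1.90 ± 0.534 to 6.84 ± 0.535 FPKM (SD, 3 libraries each; 1.45, adjusted p = 0.00124), PARP12 had 0.54 (adjusted p = 0.00171) and PARP3 0.37 (adjusted p = 0.0274). The falls were led by the tankyrase gene TNKS (-0.43, adjusted p = 0.00254), PARP8 (-0.28, adjusted p = 0.027) and PARP2 (-0.26, adjusted p = 0.00644). PARP3 and PARP8 lost their calls without NC 2, siPSCA 1 or siPSCA 2, and PARP3, PARP8 and PARP2 did with the GC trend removed. TIPARP, of the same family, was at 0.05.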
